A study of Botryllus schlosseri with 12 samples.

Results

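Of the 32561 contigs measured during early whole-body regeneration of the colonial tunicate Botryllus schlosseri, 83 (0.255%) stayed flat over the first 6 h after injury and were then higher at both 18 and 24 h. A contig is an open reading frame from a de novo transcriptome assembly, and time is given as hours post-injury (hpi). The members were chosen from the measured values themselves. Each library was scaled to counts per 1000000 (CPM) by its column total, and log2(CPM + 1) was averaged over the 3 libraries of each time point. A member had a mean CPM over the 12 libraries of 5 to under 500 and a 6 hpi mean within 0.5 of the 0 hpi mean on the log2 scale. The lower of its 18 and 24 hpi means lay at least 1 above the higher of its 0 and 6 hpi means, and every library of 18 and 24 hpi lay above every library of 0 and 6 hpi. The differences between the late (18 and 24 hpi) and early (0 and 6 hpi) libraries are therefore set by selection. Where a test is run on them below, the counts of members called only describe the list.

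The 12 libraries came from an isogenic strain that was divided into 12 subclones of similar size, each kept on a slide of its own. The zooids and buds were then cut away from all of them, so that the 0, 6, 18 and 24 hpi groups (3 subclones each) were all injured colonies and no uninjured colony was included. With 1 strain, the spread between replicates is that between subclones of a single genotype. The RNA was extracted in bulk from what was left of each colony, so more cells of a type and more RNA per cell cannot be told apart. No gene names or sequences of the members were used here, so the tissue was not checked against marker genes, and members are described by their assembly grouping and their values.

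In Botryllus, many zooids share a gelatinous tunic and a common system of epidermal vessels, whose blind ends are contractile ampullae and in which hemocytes circulate. After all zooids and buds are lost, the remaining vessels remodel, and a new zooid can arise from a bud within the vessels, which is called vascular budding. The paper describes vessel remodeling over the first 24 h. In its filmed colonies, small pieces of tissue in the tunic had reached or fused with vessels within that time. Vascular buds were mostly first detected later. The paper proposes that these buds start from zooid tissue left outside the vessels by the surgery, rather than from circulating cells. The assembler Trinity sorts its contigs into components, which are sets of overlapping sequence, then into genes within a component, and then into isoforms of a gene. Kallisto, which estimated the counts, divides reads that fit several contigs among them in fractions, so a contig whose estimates are whole numbers in all 12 libraries shows no sign of shared reads.

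Library totals ranged from 2076597 (24 hpi replicate 2) to 3992991 estimated counts (0 hpi replicate 2), and scaling factors by the trimmed mean of M values (TMM) ranged from 0.941 to 1.10. All levels below are TMM-scaled CPM unless stated otherwise. They are not divided by contig length, so an order among contigs is an order of counts and not of transcript abundance. Libraries of a time point differed by more than sampling noise in every pair, with a chi-square per degree of freedom of 3.14 to 10.5. The highest values were those of 24 hpi replicate 1 against the other 24 hpi replicates, at 9.81 and 10.5. The comparison of 24 with 18 hpi is therefore given with and without this library.

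The median member stood at 6.89 CPM at 0 hpi, 7.66 CPM at 6 hpi, 22.6 CPM at 18 hpi and 25.7 CPM at 24 hpi. The step between early and late was modest for most members. The difference that the rule set at 1 or more had a median of 1.26 on the log2 scale and quartiles of 1.07 and 1.54. It lay under 1.1 in 27 members, under 1.5 in 60 and at or above 2 in 6. As a ratio, late levels were 1.99 to 11.1 times early levels with a median of 2.82, leaving out 1 member whose early levels were 0. Just inside the limit stood members at 1.0004, 1.004 and 1.0043, and just outside it contigs at 0.997, 0.995 and 0.991. With TMM scaling in place of column totals, 57 of the 83 met the rule and no other contig did. Between 6 and 0 hpi, which the rule held flat, the members' differences ran from -0.48 to 0.47 with a median of 0.06, and 52 of the 83 were above 0. The members with the largest steps were not abundant. The 6 with a step of 2 or more had a mean CPM of 5.54 to 38.3, whereas the 5 above 100 CPM had steps of 1.06 to 1.65.

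**Figure D1:**
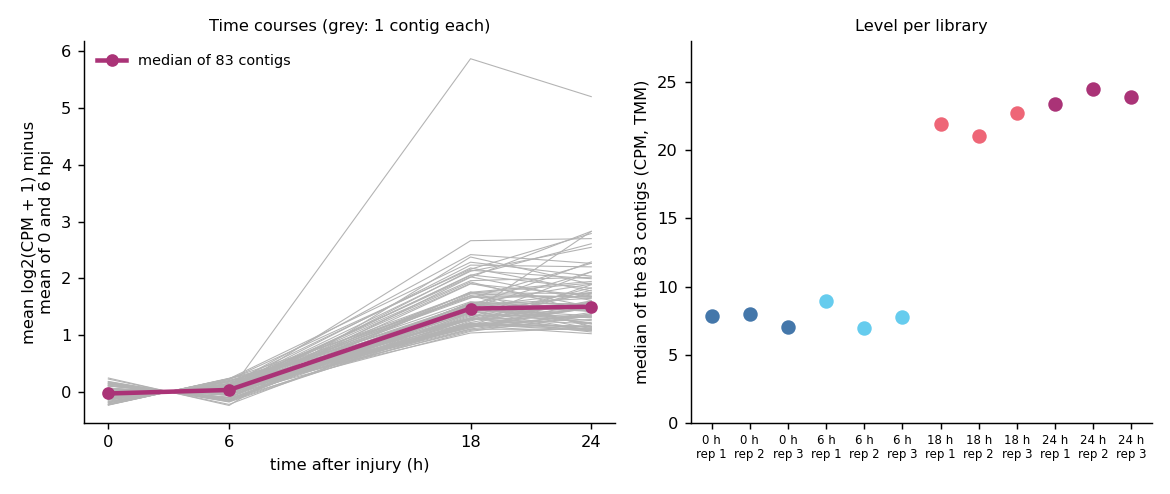
Left, mean log2(CPM + 1) of each of the 83 contigs at 0, 6, 18 and 24 hpi minus its mean over 0 and 6 hpi, with the median in purple. Right, the median level of the 83 contigs in each of the 12 libraries in TMM-scaled CPM. The rule fixes the gap between early and late. The late medians lie between 21.0 and 24.5 CPM and the early ones between 6.95 and 8.91 CPM.

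Together the members took up 0.378%, 0.378% and 0.385% of all counts in the 18 hpi libraries and 0.380%, 0.475% and 0.467% in the 24 hpi libraries. In the early libraries their share lay between 0.119% and 0.146%. Their summed level was 3574, 3542 and 3488 CPM at 18 hpi and 3488, 5032 and 4839 CPM at 24 hpi, so that 24 hpi replicate 1 sat at the level of 18 hpi. Most of the members were of low to moderate level, with a median of the mean CPM of 15.7, 19 members under 10 CPM and 12 above 50 CPM. The median member rested on 456 counts summed over the late libraries and on 122 over the early ones. Its biological coefficient of variation was 0.233, against 0.224 for the median of all contigs tested.

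The 83 members fell into 80 Trinity genes and 70 components. Of these, 46 were the only contig of their gene and 19 the only contig of their component. In 10 components there were several members, 7 with 2 and 3 with 3, which placed 23 members beside another member. Members that share a component are not independent, and 3 genes held 2 members each. Whole-number estimates in all 12 libraries were found for 48 members, and the other 35 (42.2%) shared reads with similar contigs. Shared reads were seen for 30.1% of all 32561 contigs and for 26.2% of the 17011 contigs that passed the limits on level and on the 6 hpi difference.

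Among the 48 members with whole-number estimates, TRINITY_DN13715_c1_g1_i1.p1 had the highest late level. It measured 49.0, 108 and 70.6 CPM at 0 hpi, 71.7, 84.7 and 65.5 CPM at 6 hpi, 292, 230 and 226 CPM at 18 hpi, and 182, 191 and 234 CPM at 24 hpi. The lowest late library stood well above the highest early one, and the late time points overlapped. The largest step among these 48 was that of TRINITY_DN14120_c2_g9_i1.p2, at 2.14. This contig gave 6.04, 4.79 and 1.76 CPM at 0 hpi, 5.27, 6.08 and 3.12 CPM at 6 hpi, 24.3, 23.7 and 24.9 CPM at 18 hpi, and 30.4, 17.9 and 23.7 CPM at 24 hpi. Its early values rested on 6 to 18 counts a library. The 18 hpi values were nearly equal and lay within the wider span of the 24 hpi values.

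Among members with whole-number estimates, the lowest values at 24 relative to 18 hpi belonged to another pair of contigs. TRINITY_DN16581_c3_g8_i1.p1 averaged 27.1 ± 4.11 CPM at 24 hpi and 36.9 ± 6.03 CPM at 18 hpi (SD, n = 3 each), after 8.25 to 14.4 CPM over the early libraries. TRINITY_DN13212_c2_g1_i2.p1 averaged 46.4 ± 8.57 CPM at 24 hpi and 62.1 ± 7.96 CPM at 18 hpi (SD, n = 3 each), after 9.95 to 24.0 CPM over the early libraries. In both, 1 library of 24 hpi reached into the range of 18 hpi, and neither difference passed the test, with values given below.

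**Figure D2:**
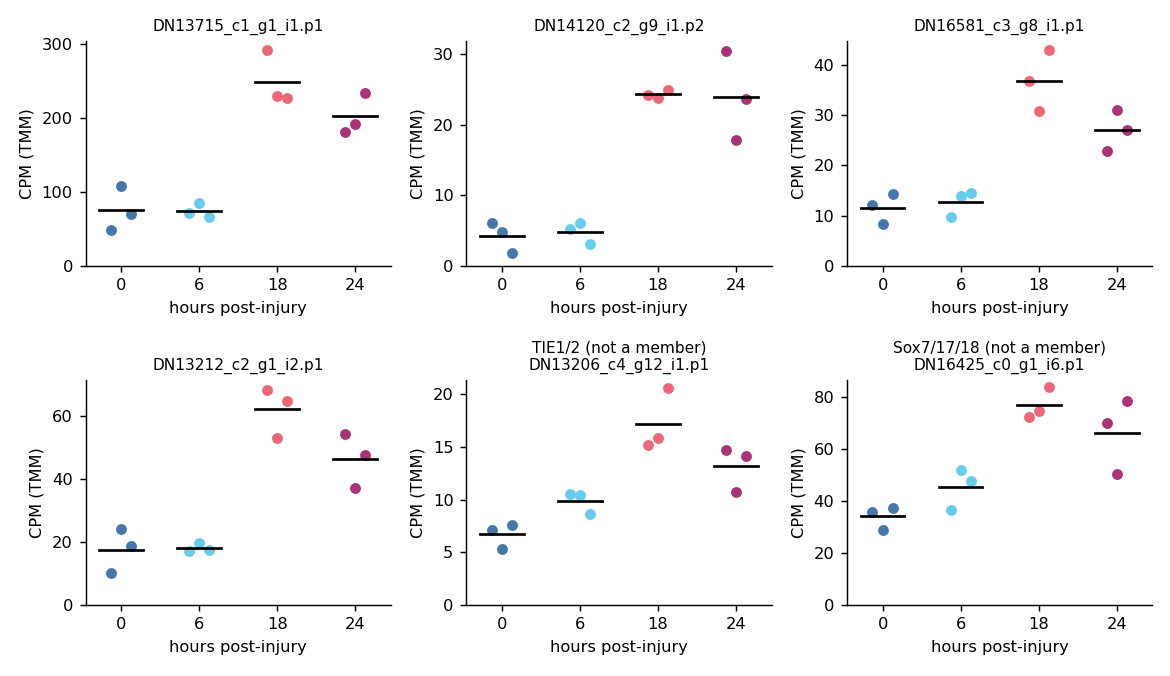
Levels of 4 late-rising contigs and of the contigs labelled TIE1/2 and Sox7/17/18, which are not members, in TMM-scaled CPM against hours post-injury. Each point is a library and each bar the mean of 3. In the 4 members the late points stand clear of the early ones. On this scale the TIE1/2 contig has a 24 hpi library at 10.7 CPM, just above the highest 6 hpi library at 10.5 CPM. Scaled by column totals, as in the rule, its late and early libraries overlap. The Sox7/17/18 contig has late and early libraries that overlap.

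Each pair of time points was compared by edgeR's quasi-likelihood test across 31383 contigs, all 83 members among them. A contig was called when the p, adjusted by Benjamini-Hochberg, was below 0.05 and the fold change exceeded 1 on the log2 scale in size. Since the rule used these contrasts, the counts of members called describe the list. At 18 against 0 hpi, 70 members (84.3%) were called higher, where 2.93% of all contigs tested were. At 24 against 0 hpi the count was 79 (95.2%), with 3.54% of all contigs. At 18 against 6 hpi it was 56 (67.5%), with 1.6% of all contigs, and at 24 against 6 hpi it was 75 (90.4%), with 2.02% of all contigs. The contrasts share their 0 and 6 hpi libraries. There were 48 members called in all 4 of them and 2 in none. The median log2 fold change of the members was 1.38 at 18 and 1.57 at 24 against 0 hpi, and 1.40 at 18 and 1.57 at 24 against 6 hpi. Over all contigs tested, these medians lay between -0.01 and 0.01.

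The rule did not set which of the 18 and 24 hpi levels was higher, and this comparison was tested. The rule did require both late means to lie at least 1 above the early ones. Contigs with an 18 or 24 hpi mean less than 1 above the early ones were thus left out, which limits the members' spread here. No member was called at 24 against 18 hpi by edgeR, DESeq2 or limma-voom. Among all contigs tested, edgeR called 0.0223% higher and 0.00319% lower. The smallest adjusted p of a member was 0.203 (edgeR's quasi-likelihood test). At an unadjusted p under 0.05, edgeR gave 9 members (10.8%), all 9 higher at 24 hpi, where 7.02% of all contigs had such a p in either direction. The members' log2 fold changes ran from -0.79 to 1.68, with a median of 0.15 and quartiles of -0.06 and 0.44, beside a median of 0.01 over all contigs tested. In 67 members the absolute log2 fold change was under 0.5 and in 2 it was above 1. A p that misses the threshold at 3 libraries per time point does not show that the levels were equal.

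Counting libraries in place of fitted values, every 24 hpi library lay above every 18 hpi library in 9 members (10.8%), where 6.06% of all contigs had this order. Every 24 hpi library lay below every 18 hpi library in 1 member (1.20%), where 5.49% of all contigs had that order. In 73 members the late time points overlapped. The fitted log2 fold change was above 0 in 55 members (66.3%) and in 51.8% of all contigs. This split moved with the scaling. With library size alone, it was 45 members (54.2%) and 39.5% of all contigs, the median of all contigs moved to -0.09 and that of the members to 0.05. Under the same scaling, 8 members had every 24 hpi library above and 4 had every 24 hpi library below, where 4.22% and 8.65% of all contigs did.

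**Figure D3:**
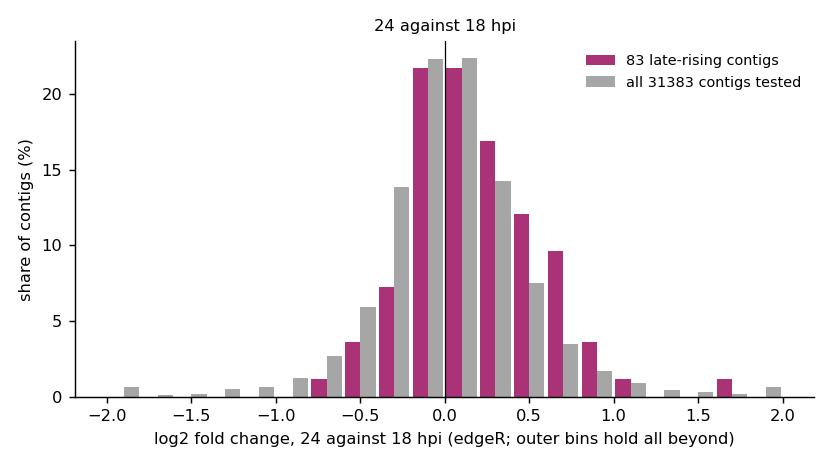
Distribution of the fitted log2 fold change at 24 against 18 hpi, as the share of contigs per bin of 0.2, for the 83 late-rising contigs (purple) and all 31383 contigs tested (grey). Both peak near 0, and the medians are 0.15 for the late-rising contigs and 0.01 for all contigs.

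Single members show what these values hold. The highest log2 fold change at 24 against 18 hpi, 1.68 (SE 0.372, adjusted p 0.203 by edgeR), belonged to a member with whole-number estimates. It measured 38.6, 21.4 and 23.4 CPM at 24 hpi, against 8.09, 9.89 and 8.10 CPM at 18 hpi, with 0.878 to 5.33 CPM in the early libraries. The time points did not overlap, and in these libraries the level at 18 hpi was intermediate. The member was picked as the highest of all on this comparison, and its difference did not pass the test. The member with every 24 hpi library below every 18 hpi library measured 147, 134 and 127 CPM at 24 hpi, against 169, 205 and 156 CPM at 18 hpi. For the named contigs, edgeR gave log2 fold changes at 24 against 18 hpi of -0.46 (SE 0.227, adjusted p 0.734) for TRINITY_DN16581_c3_g8_i1.p1 and -0.41 (SE 0.233, adjusted p 0.796) for TRINITY_DN13212_c2_g1_i2.p1. The value of TRINITY_DN13715_c1_g1_i1.p1 was -0.30 (SE 0.233, adjusted p 0.876 by edgeR). That of TRINITY_DN14120_c2_g9_i1.p2 was -5.6e-05 with an adjusted p of 1, and its sign changed with the tool and the libraries used.

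The result at 24 against 18 hpi depended on 24 hpi replicate 1. Without this library, 4 members were called higher at 24 hpi and 0 lower, where 0.462% of all contigs were called higher and 0.0786% lower. An unadjusted p under 0.05 (edgeR) was found for 14 members that were higher and 2 that were lower at 24 hpi. These were 19.28% of the members, where 13.03% of all contigs had such a p in either direction. The count with a fitted log2 fold change above 0 was again 55 (66.3%), with 50.2% of all contigs. Every remaining 24 hpi library lay above every 18 hpi library in 26 members (31.3%), where 18.2% of all contigs had this order, and below in 7 (8.43%), where 15% did. The log2 fold changes of the 4 called members were then 1.36, 1.23, 1.12 and 1.02, with adjusted p of 0.0143, 0.0087, 0.0102 and 0.0449 (edgeR). One of the 4 had whole-number estimates, and it measured 92.4, 170 and 161 CPM at 24 hpi, against 90.3, 74.0 and 80.7 CPM at 18 hpi. Replicate 1 of 24 hpi was thus at the level of 18 hpi in this contig, while the other replicates were higher. The same order was seen in another of the 4, with 106, 311 and 219 CPM at 24 hpi, against 122, 110 and 77.6 CPM at 18 hpi. Over all members, the median log2 deviation from the mean of the 24 hpi libraries was -0.10 in replicate 1, 0.07 in replicate 2 and 0.08 in replicate 3. The largest such deviation was not at 24 hpi. At 0 hpi it was -0.04 in replicate 1, 0.21 in replicate 2 and -0.08 in replicate 3.

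The other pair of these 4 were contigs of a single Trinity gene of 4 contigs, and they were also the members with the most counts, with mean CPM of 329 and 327. Neither had whole-number estimates, so the division of reads between them is uncertain and their sum is given. It was 322, 400 and 296 CPM at 0 hpi, 291, 332 and 352 CPM at 6 hpi, 684, 749 and 662 CPM at 18 hpi, and 635, 1645 and 1503 CPM at 24 hpi. They thus made up 18.2% of the members' summed level in 24 hpi replicate 1 and 32.7% and 31.1% in replicates 2 and 3. Without them, the summed level of the members was 914 to 1148 CPM at 0 hpi, 1014 to 1045 CPM at 6 hpi, 2793 to 2889 CPM at 18 hpi and 2853 to 3386 CPM at 24 hpi.

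Members of 1 component were close to each other in some components and apart in others at 24 against 18 hpi. The rule did not set the direction of this comparison. The gap between the highest and lowest log2 fold change within a component ran from 0.024 to 0.69 over the 10 components with several members, and was under 0.5 in 8. Members in general were near 0 here, with 67 of the 83 under 0.5 in absolute log2 fold change. Gaps between members of different components were not computed, and in some components no member had whole-number estimates. In a component of 3 contigs, all 3 were members with whole-number estimates from 3 Trinity genes, with log2 fold changes of 0.46 to 0.67. In another of 5 contigs, the 3 members had whole-number estimates and log2 fold changes of -0.03 to 0.07. In the third component with 3 members, none of which had whole-number estimates, they ran from -0.50 to 0.10. None of these 9 members passed the test at 24 against 18 hpi.

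To set the members beside their genes, the contigs of each of the 34 Trinity genes with several contigs were summed. The late and early sums did not overlap in 23 of these genes, and 13 met the whole rule as genes. Each sum includes the members, which the rule chose for their rise, so these counts describe the list. Members made up 0.994% to 100% of a gene's level over the late libraries. Shares over all genes with several contigs are not given here. The log2 ratio of late to early, with 1 CPM added to each, had a median of 1.03 over the gene sums, beside 1.42 over the members of the same genes. It was at least 1 in 18 genes, under 0.5 in 5 and below 0 in 1, over a range of -0.61 to 2.90. Summed over its 7 contigs, the gene with the largest value averaged 871 CPM over the late libraries and 116 CPM over the early libraries. It measured 22.3 to 124 CPM at 0 hpi, 122 to 224 CPM at 6 hpi, 781, 481 and 540 CPM at 18 hpi, and 1224, 1151 and 1048 CPM at 24 hpi. Its 0 and 6 hpi sums overlapped.

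The gene whose mean sum was lower late measured 52.9 to 84.1 CPM over the late libraries and 52.4 to 155 CPM over the early libraries. Its early libraries were 148, 155 and 129 CPM at 6 hpi and 58.3, 57.2 and 52.4 CPM at 0 hpi. The member took 24.6% of that gene's counts late and 5.75% early.

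**Figure D4:**
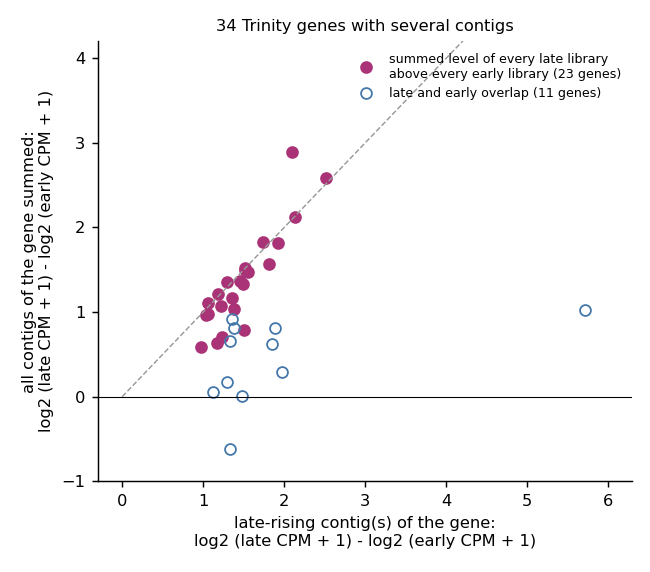
For each of 34 Trinity genes with several contigs, the log2 ratio of late (18 and 24 hpi) to early (0 and 6 hpi) levels of all its contigs summed, against that of its late-rising contig or contigs, with 1 CPM added. The dashed line marks equal values. Each sum includes the late-rising contig or contigs, which the rule selected. In 23 genes (filled) the sums of late and early libraries do not overlap. In the other 11 (open) they do, and the open point at the right is the contig estimated at 0 in the early libraries.

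A single member was estimated at 0 in all 6 early libraries once rounded. It measured 55.3, 23.5 and 116 CPM at 18 hpi and 46.3, 43.9 and 22.9 CPM at 24 hpi, with no order between the late time points. Against a floor of 3 counts set over the 6 early libraries together, it was 286-fold higher over the late libraries. It belonged to a gene of 7 contigs and did not have whole-number estimates. How far the division of reads among the gene's contigs set the early zeros was not tested, so 286 is not a lower bound. The member took 8.96% of the gene's counts late and 0% early. The gene's sum averaged 574 CPM over the late libraries and 283 CPM over the early libraries, and these overlapped. A further 5 members were at 0 in some early library but not in all.

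Contigs beside the members, which the rule did not select, were compared late against early (the mean of 18 and 24 hpi against the mean of 0 and 6 hpi) in the same edgeR fit. In this contrast 2.04% of all contigs tested were called higher, and 1755 of the 31383 were called lower. Among the 10010 tested contigs that share a Trinity gene with another contig, 2.67% were called higher and 665 were called lower. Of the 83 members, which the rule had chosen for this contrast, 82 were called higher. The members' genes held 85 other contigs, of which 79 were tested. There were 24 called higher (30.4%), in 14 of 30 genes, and 3 called lower, with a median log2 fold change of 0.89 and a range of -2.29 to 6.28. Most of these 79 shared reads with other contigs. Among the 73 that did, 23 were higher and 1 lower. Among the 6 with whole-number estimates, 1 was higher and 2 were lower. How far the division of reads among isoforms carried the first count was not tested.

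Contigs of other Trinity genes in the members' components were compared in the same way, a comparison chosen after the values above were seen. Of 126 such contigs, 121 were tested, and 27 (22.3%) were called higher and 3 lower. Among the 80 with whole-number estimates, which show no sign of shared reads, 24 (30.0%) were called higher and 0 lower, with a median log2 fold change of 0.60. The 24 came from 15 of the 33 components that held such contigs, with at most 4 from 1 component, and their log2 fold changes ran from 1.00 to 3.14. Neighbours in a component overlap in sequence, so these are not independent of the members. They were not members for varied reasons. The limit on the 6 hpi difference was missed by 15, the minimum step by 15, the non-overlap by 5 and the limits on level by 3, and a contig could miss several of these.

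**Figure D5:**
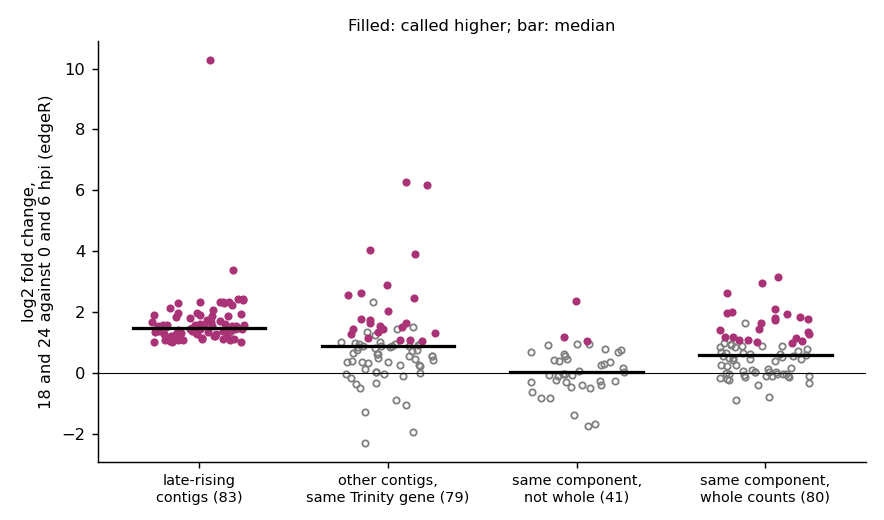
Fitted log2 fold change of the mean of 18 and 24 hpi against the mean of 0 and 6 hpi for the 83 late-rising contigs, the 79 other contigs of their Trinity genes, and the contigs of other genes in their components without (41) and with (80) whole-number estimates. Filled points were called higher, and bars are medians. The late-rising contigs are high by selection, and the topmost of them is the contig at 0 in all early libraries, whose fitted value depends on the small count added. The medians of the other contigs of their genes and of the whole-number neighbours are 0.89 and 0.60.

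Many contigs came near the rule. There were 712 contigs that met all of its steps except the minimum difference and had a difference above 0, and 23 of these had at least 0.9. Of the contigs that met all steps but 1, 66 missed the limit on the 6 hpi difference, 54 of them with a 6 hpi mean above that of 0 hpi. A further 26 missed only the non-overlap of late and early libraries, and 20 only the minimum of 5 CPM. No contig was left out by the maximum of 500 CPM alone.

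Of 5 contigs that the study's phylogenetic trees label with a gene, 4 were matched to the table, and 0 are members. These genes were picked for their profiles in these same samples. The contig labelled TIE1/2, TRINITY_DN13206_c4_g12_i1.p1, is named for the receptors of angiopoietins, which act on vessel growth in vertebrates. It measured 7.11, 5.32 and 7.61 CPM at 0 hpi, 10.5, 10.4 and 8.58 CPM at 6 hpi, 15.2, 15.8 and 20.6 CPM at 18 hpi, and 14.7, 10.7 and 14.1 CPM at 24 hpi. Its step was 0.42, and its 6 hpi difference of 0.52 was just past the limit of 0.5. It also missed the non-overlap, because a 24 hpi library fell among the early ones when scaled by column totals. By edgeR, its log2 fold change was 0.80 (SE 0.256, adjusted p 0.0615) at 18 against 6 hpi and 0.44 (SE 0.261, adjusted p 0.367) at 24 against 6 hpi.

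The contig labelled Sox7/17/18, TRINITY_DN16425_c0_g1_i6.p1, belongs to a family of transcription factors that act in the endothelium of vertebrates. It measured 35.9, 29.0 and 37.5 CPM at 0 hpi, 36.5, 52.1 and 47.6 CPM at 6 hpi, 72.5, 74.7 and 83.8 CPM at 18 hpi, and 69.9, 50.5 and 78.5 CPM at 24 hpi. It stayed within the limit on the 6 hpi difference, at 0.41, but its step was 0.57 and 1 library of 24 hpi fell among those of 6 hpi. By edgeR, its log2 fold change was 0.76 (SE 0.197, adjusted p 0.0207) at 18 against 6 hpi, short of the fold needed for a call, and 0.56 (SE 0.197, adjusted p 0.0988) at 24 against 6 hpi. The contig labelled C3/5, for the complement components at the centre of that cascade, was higher already at 6 hpi, by 1.47 on the log2(CPM + 1) scale. The contig labelled XIIIb, for a subunit of a clotting factor, averaged 128 CPM at 0 hpi, 38.2 CPM at 6 hpi, 1.88 CPM at 18 hpi and 1.02 CPM at 24 hpi.

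The late-rising contigs were set beside those with 2 other courses over the same libraries. There were 391 contigs within the same range of levels that were at least 1 higher at 6, 18 and 24 hpi than at 0 hpi, and 129 that met the same rule turned around, lower only after 6 hpi. At 24 against 18 hpi, the median log2 fold change was 0.15 in the late-rising contigs, 0.19 in those raised by 6 hpi and 0.13 in those lower only after 6 hpi. Every 24 hpi library lay above every 18 hpi library in 10.8%, 21.0% and 3.10% of these groups, where 6.06% of all contigs tested had this order. The opposite order was found in 1.20%, 3.84% and 3.10%, and in 5.49% of all contigs. The edgeR test called 0, 4 and 0 contigs of these groups higher at 24 against 18 hpi, and 0.0223% of all contigs. Without 24 hpi replicate 1, it called 4, 19 and 3 higher, and 0.462% of all contigs, and the medians were 0.17, 0.29 and 0.22. Every remaining 24 hpi library then lay above every 18 hpi library in 31.3%, 37.9% and 24.8% of the groups, and in 18.2% of all contigs. Below lay 8.43%, 5.88% and 7.75% of the groups, and 15% of all contigs. The differences between these groups of contigs were not tested.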

How the data were processed

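RNA of 12 injured colonies was sequenced, 3 at each of 0, 6, 18 and 24 hpi. The authors filtered out ribosomal RNA (SortMeRNA), trimmed the reads (Trimmomatic 0.30), assembled them (Trinity), kept open reading frames with TransDecoder, collapsed similar ones with cd-hit-est and quantified with kallisto 0.43.1. The deposited values are the estimated counts of kallisto for 32561 contigs, not normalized. Here they were rounded to whole numbers and fitted with edgeR 4.0.16 in R 4.3.3. TMM scaling, filterByExpr (31383 contigs kept, 1178 removed) and a robust quasi-likelihood fit of all 12 libraries were used, with Benjamini-Hochberg adjustment within a contrast. The fit was tested on simulated data, whose set changes were larger than most members' log2 fold changes at 24 against 18 hpi. The simulation thus does not cover differences that small. A standard error is the size of a log2 fold change divided by the root of its F. Alternatives used DESeq2 1.42.0 and limma 3.58.1. Members, lists and tests were chosen with earlier results of these data known. Contig IDs were printed for the whole-number members with the highest late level and the largest step, the 2 with the lowest value at 24 against 18 hpi, and contigs labelled in the study's trees. The authors named contigs by their best match among human proteins. Those names were not used here, and 0 contig IDs matched the RefSeq gene table. A contig labelled Ets-1 was not analysed here.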

Additional observations from a re-analysis of the deposited data

How the results depend on the processing

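With 3 libraries per time point and limited early counts, small steps are imprecise, and 27 members lay within 0.1 of the limit. The members' counts summed over the 6 early libraries had a lower quartile of 77.9 and a median of 122. The rule found 57 contigs with TMM scaling (all 57 among the 83), 89 and 70 with 0.5 and 2 CPM added, 58 with a 6 hpi limit of 0.25, 103 without limits on level and 66 genes on gene sums. It found 23 with a minimum step of 1.5 and 48 among whole-number contigs alone. Leaving out a library gave 76 to 107. Over all alternatives, members called higher numbered 52 to 79 at 18 against 0 hpi, 65 to 80 at 24 against 0 hpi, 42 to 70 at 18 against 6 hpi and 55 to 78 at 24 against 6 hpi. The rule used these contrasts, so the counts describe the list, and shares of all contigs under each alternative are not given here. At 24 against 18 hpi members called numbered 0, except 4 without 24 hpi replicate 1, so leaving out a library gave 0 to 4. The members' median there was 0.053 with library size alone, and 0.11 to 0.17 with a library left out. The value of TRINITY_DN14120_c2_g9_i1.p2 turned to 0.0039 with limma-voom and ran from -0.21 to 0.163 with a library left out. Other contigs of the members' genes called higher numbered 22 to 36, also given without such shares. Whole-number neighbours, likewise without such shares, numbered 21 to 29, and 41 by adjusted p alone. For each of these, the cause was not tested. Replicate numbers are shared between the time points, but same-numbered libraries did not deviate together (correlations of -0.139 to 0.0918), so they were not treated as pairs. With the replicate number as a block, the members called numbered 64, 74, 55 and 72 at 18 against 0, 24 against 0, 18 against 6 and 24 against 6 hpi, and 0 at 24 against 18 hpi, where the median was 0.14.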
